A study of Homo sapiens with 5 samples.

Results

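The replication-dependent histone cluster genes are the mostly intronless genes of the HIST1 to HIST4 clusters, which encode the linker histone H1 and the core histones H2A, H2B, H3 and H4. They were chosen by name, as every gene symbol in the files that starts with HIST, a cluster number from 1 to 4 and the letter H, whatever its level. This gave 67 of the 27189 genes listed: 53 in HIST1, 10 in HIST2, 3 in HIST3 and 1 in HIST4, or 6 for H1, 16 for H2A, 19 for H2B, 12 for H3 and 14 for H4. In RefSeq, 3 of them (HIST1H2APS1, HIST2H2BA and HIST2H2BC) are pseudogenes. The study sequenced RNA from HT1080, a human fibrosarcoma line grown with 10% fetal bovine serum, after 24 h in gels of 2 mg/ml rat-tail collagen I. The LD library came from cells at 10 cells/mm3 without added cytokine, and the HD library from cells at 50 cells/mm3 without added cytokine. For the other 3 libraries, IL-6, IL-8 and RM, cells at 10 cells/mm3 were given recombinant IL-6, recombinant IL-8, or both in the ratio 5:2. Each condition was 1 library, so no difference between conditions has a replicate check, no p-value is given, and the 4 comparisons with LD share that library.

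These genes supply the histones that wrap newly copied DNA, and cells transcribe them mainly in S phase. In animals their mRNAs are the class that ends in a short stem-loop instead of a poly-A tail. The stem-loop binding protein SLBP holds this end, and a complex guided by the U7 small nuclear RNA cuts the transcript just past it. Some of the genes also give longer transcripts that run through the stem-loop to an ordinary poly-A signal, mostly in cells that have stopped dividing. The extraction notes state selection of mRNA with oligo-dT, which pairs with poly-A, before reverse transcription and amplification of the whole cDNA pool with phi29 polymerase. A histone transcript ending at its stem-loop has no such tail, and which ends the counted molecules had was not measured.

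The stem-loop is shown first because it marks the point at which the tailless form ends. The motif searched, on the sense strand of the GENCODE 29 transcripts, was GG, any 3 bases, TTTT, any base, A, any 3 bases and CC. It was found in transcripts of 28 of the 67 genes and in 1.03% of the 83057 coding transcripts of other genes. The 28 genes had 5 distinct stem-loops, and 14 of them carried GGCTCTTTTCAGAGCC. For 33 of the 67 genes GENCODE lists a coding sequence only, so the end of the transcript is not in these windows. In the sites that follow, 5′ to 3′, the capitals mark the 16 bases of the stem-loop.
HIST1H2AC: ccaaaGGCTCTTTTCAGAGCCcccctaccg
HIST2H2AA4: caaaaGGCTCTTTTCAGAGCCacccacgtt
HIST1H2AE: ccaaaGGCTCTTTTCAGAGCCacccacctt
HIST1H2BC: ccaaaGGCTCTTTTAAGAGCCacccagata
HIST1H2BD: ccaaaGGCTCTTTTAAGAGCCacgcatgtt
HIST2H2BE: ccaaaGGCTCTTTTCAGAGCCacccaccta
HIST4H4: caaaaGGCCCTTTTCAGGGCCcccaaactg
HIST1H4H: ccaaaGGCCCTTTTCAGGGCCgcccacttt
The annotated transcripts end at very different distances past this site. HIST2H2AA4 ends 35 bases after it and HIST1H2AE 51 bases after it. HIST1H2AC has transcripts that run 1114 and 1128 bases on, HIST2H2BE 1729 bases, and HIST4H4 between 169 and 1510 bases. In all, 19 of the 28 genes have a transcript that runs more than 300 bases past the stem-loop, and 8 have one that ends within 50 bases of it.

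Stretches of A within a transcript are shown because oligo-dT can pair with them too. For each gene the 20-base window richest in A was taken from the GENCODE transcript closest in length to the one the files imply, or from the shortest where there was none. The median gene had 10 A in that window, against 11 in the 30434 coding transcripts of other genes that are 300 to 1000 bases long. At least 18 A were found in 2 of the 67 genes (2.99%) and in 0.338% of those other transcripts. The 2 genes are HIST1H4C, the second most read of the family, and HIST1H2BG, which had 4 reads in all. Their windows are printed with the 10 bases before them, with the window in capitals.
HIST1H4C: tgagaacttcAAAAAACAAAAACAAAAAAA
HIST1H2BG: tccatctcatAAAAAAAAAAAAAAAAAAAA
The HIST1H4C window starts at base 416 of 435 and is the last 20 bases of its only annotated transcript. Reads and TPM imply a transcript of 340 to 347 bases for HIST1H4C, so the window may lie outside the one that was counted. The HIST1H2BG window starts at base 1505 of 1534, while 402 to 403 bases are implied for that gene, so the same limit applies. The most read gene, HIST1H1C, had 12 A in its richest window, HIST1H2AH had 9 and HIST1H2BK had 10. Whether priming occurred inside any transcript was not tested.

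Promoters were available from RefSeq for 59 of the 67 genes (GRCh38.p14, 250 bases before to 50 after the start), matched by symbol; HIST1H4C and HIST1H2AH were not among them. Motifs were searched on both strands and counted per gene, so a motif on bases shared by neighbouring genes counts for each. CCAAT, the CCAAT box, was in 50 of the 59 and in 35.6% of the 27246 other promoters. The core of the TATA box, TATAAA, was in 38 against 11.8% of other promoters. ATTTGCAT, the octamer that Oct-1 binds, was in 25 against 1.71%, and it was in 11 of 14 H2A and 13 of 17 H2B promoters. AAACACA, the H1 box, was in 8 against 5.74%, among them all 6 H1 promoters. Of the 41 promoters whose gene was read in at least 1 library 20 held the octamer, and of the 18 whose gene was never read 5 did. No H1 or H4 promoter and 1 of 10 H3 promoters held it, and the split by reads was not made within a class. The promoter of the most read gene, HIST1H1C (chr6:26056421-26056720, minus strand), of HIST1H2BK (chr6:27146809-27147108, minus strand), and of HIST1H2AC (chr6:26123922-26124221, plus strand), which is shared with HIST1H2BC on the other strand, are printed with these motifs in capitals.
HIST1H1C: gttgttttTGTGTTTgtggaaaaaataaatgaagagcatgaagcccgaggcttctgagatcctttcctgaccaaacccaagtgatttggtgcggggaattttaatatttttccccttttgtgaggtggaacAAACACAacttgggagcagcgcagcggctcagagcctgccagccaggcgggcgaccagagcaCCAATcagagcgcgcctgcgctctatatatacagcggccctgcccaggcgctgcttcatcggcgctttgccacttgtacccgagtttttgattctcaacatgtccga
HIST1H2BK: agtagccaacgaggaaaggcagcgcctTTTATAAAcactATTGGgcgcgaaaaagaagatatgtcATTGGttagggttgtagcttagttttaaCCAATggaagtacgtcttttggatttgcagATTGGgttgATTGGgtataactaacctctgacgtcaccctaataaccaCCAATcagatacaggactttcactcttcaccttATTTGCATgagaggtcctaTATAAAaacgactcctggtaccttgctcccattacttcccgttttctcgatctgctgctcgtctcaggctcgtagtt
HIST1H2AC: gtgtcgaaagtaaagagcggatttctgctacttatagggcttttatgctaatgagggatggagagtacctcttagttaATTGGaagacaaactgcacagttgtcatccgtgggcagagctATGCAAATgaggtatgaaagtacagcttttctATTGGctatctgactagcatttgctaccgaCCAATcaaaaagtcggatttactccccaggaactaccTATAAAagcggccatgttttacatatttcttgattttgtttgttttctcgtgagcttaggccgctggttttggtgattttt
HIST1H1C has the H1 box at bases -242 and -119 from the start, and a CCAAT box at -57. HIST1H2BK has a TATA box core at -27 and the octamer at -46. HIST1H2AC has a TATA box core at -31 and the octamer at -130, and the octamer lies at -123 counted from the HIST1H2BC start.

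The depth behind the values differed between libraries. Between 5096134 and 7118545 reads were counted in the 4 low-density libraries and 926376 in HD. The entry RNA5-8S5, named for a ribosomal RNA, took 76.9% to 79.6% of the reads at low density and 51.5% in HD, which left 449661 reads on the other genes in HD and 1645539 in LD, 1434366 in RM, 1120609 in IL-8 and 1100967 in IL-6. Levels are given as reads per 1000000 of those other reads (CPM), with exact 95% Poisson intervals, and as TPM, the abundance corrected for transcript length. The reads were amplified and carry no molecular identifiers, so all intervals cover counting error only. A gene with 0 reads may lie at up to 3 reads, which is 1.82 CPM in LD, 6.67 in HD, 2.09 in RM, 2.68 in IL-8 and 2.73 in IL-6. All 8 mesenchymal marker genes, among them VIM (vimentin), were read in every library. Their summed level was 6772 to 9998 CPM at low density and 1063 CPM in HD. Between 1 and 2 of the 6 epithelial and at most 1 of the 5 blood marker genes were read at low density, against 5 and 4 in HD, where their summed level was 118 and 113 CPM. At low density it was 8.37 to 81.4 CPM for the epithelial genes, mostly KRT19, and 0 to 1.79 CPM for the blood genes. In HD the defining blood gene PTPRC had 36 reads and the epithelial gene CDH1 34. The part of these reads, and of the lower mesenchymal level, in the results on HD was not tested.

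Of the 67 genes, 45 had at least 1 read in some library and 22 had none in any (32.8%, against 20.4% of all genes). The genes never read were 4 of the 6 for H1, 2 of 16 for H2A, 6 of 19 for H2B, 4 of 12 for H3 and 6 of 14 for H4. Among them were the H1 genes HIST1H1A, HIST1H1B and HIST1H1D, and HIST1H1T, the H1 of the testis. A read was seen on 27 genes (40.3%) in LD, 37 (55.2%) in HD, 26 (38.8%) in RM, 22 (32.8%) in IL-8 and 27 (40.3%) in IL-6. Over all genes the shares in the same order were 54.4%, 74.0%, 49.5%, 50.7% and 55.5%, higher in each library than among the histone genes. HD, with the fewest reads, had the most histone genes read, but 15 of its 37 genes rested on 1 read, and 14 had at least 3, against 15 to 21 at low density. At an equal depth of 449661 reads per library outside RNA5-8S5, drawn at random, a read was seen on 23 genes in LD, 16 in RM, 18 in IL-8 and 20 in IL-6. A read in all 5 libraries was seen on 11 genes. There were 8 genes read in HD alone, with 20 reads between them, and 8 read at low density but not in HD. These overlaps were not counted over all genes, of which HD also read the largest share. Whether they are particular to the histone genes is not known.

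**Figure D1:**
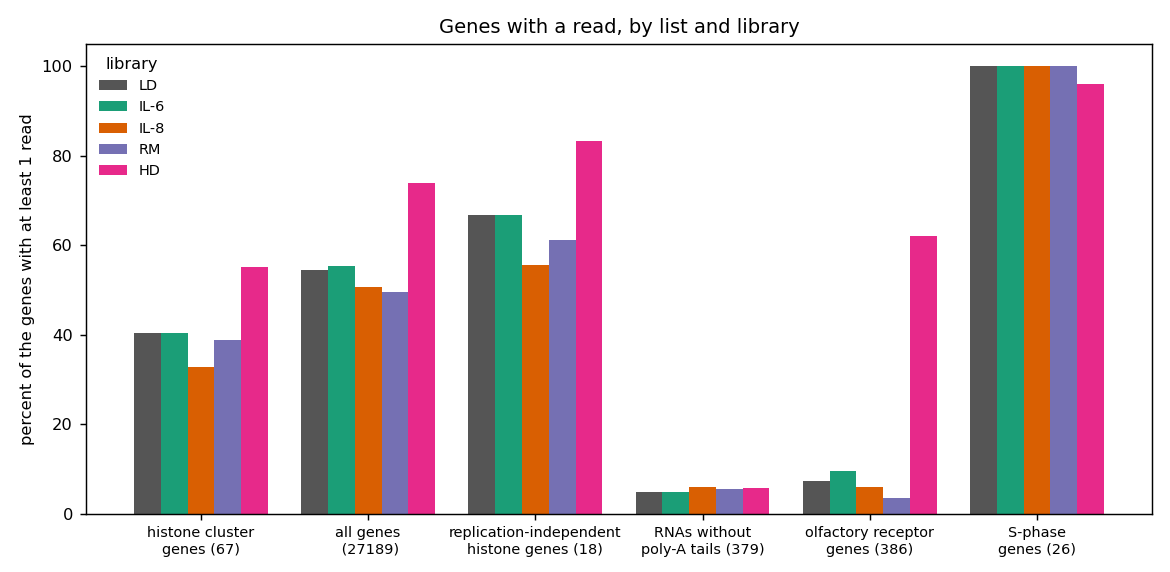
Percent of the genes of each list with at least 1 read (vertical axis) in each library (bar colours). Of the 67 histone cluster genes 22 to 27 were read at low density and 37 in HD, and of 386 olfactory receptor genes 14 to 37 were read at low density and 240 in HD.

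The reads were concentrated on few genes. The family took 829 reads in LD, 171 in HD, 849 in RM, 984 in IL-8 and 566 in IL-6, 3399 in all. HIST1H1C alone had 1086, HIST1H4C 695 and HIST1H2AH 380, and these 3 genes held 63.6% of the reads of the family. Adding HIST1H2BK, HIST2H2AA4 and HIST1H2AC brought the share to 83.7%, and the first 10 genes held 91.2%. At the other end, 44 of the 67 genes had fewer than 10 reads over all libraries together.

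As a share of the reads outside RNA5-8S5, the family took 504 CPM in LD (95% interval 470 to 539), 380 in HD (325 to 442), 592 in RM (553 to 633), 878 in IL-8 (824 to 935) and 514 in IL-6 (473 to 558). IL-8 stood above the other libraries and HD below them, by more than the counting error. In RNA from whole gels, fewer cells carrying these mRNAs and less of them per cell cannot be told apart. The ratio to LD was 0.755 in HD (0.637 to 0.891), 1.18 in RM (1.07 to 1.29), 1.74 in IL-8 (1.59 to 1.91) and 1.02 in IL-6 (0.915 to 1.14). RM, which received both cytokines, stood at 0.674 times the level of IL-8 (0.614 to 0.740). In HD the sum held opposite parts, shown by leaving out genes chosen after their values were seen: without HIST1H1C the ratio to LD was 1.05 (0.873 to 1.25), and without HIST1H4C it was 0.556 (0.449 to 0.684). Summed TPM gave another order, with 1248 in LD, 1740 in HD, 1424 in RM, 2208 in IL-8 and 1231 in IL-6, so HD lay below LD by CPM and above it by TPM.

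The most read genes and the rest were also summed apart. The ranking used these same reads, of which HD gave 171 of 3399. Such a ranking favours genes high at low density, so a low HD ratio for them follows in part from the choice. The same choice raises the HD ratio of the rest, and the intervals do not allow for it. The first 6 genes had 410 CPM in LD and 194 CPM in HD, a ratio of 0.472 (0.373 to 0.590). The other 61 genes had 93.6 CPM in LD and 187 CPM in HD, a ratio of 2.00 (1.51 to 2.62). In IL-8 the first 6 stood at 1.91 times LD (1.73 to 2.12) and the other 61 at 0.992 (0.766 to 1.28). IL-8 gave 984 of the 3399 reads, the most of any library, so the ranking also favours genes high in IL-8. This raises the IL-8 ratio of the first 6 and lowers that of the other 61, and the intervals do not allow for it. In RM the ratios were 1.26 (1.14 to 1.40) and 0.790 (0.611 to 1.02), and in IL-6 1.02 (0.903 to 1.15) and 1.03 (0.796 to 1.33). The 386 olfactory receptor genes, which are active in the nose, had 39.5 CPM in LD and 3643 CPM in HD, so the reads on little-used genes were higher there too; their part in the HD values of the 61 genes was not tested.

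**Figure D2:**
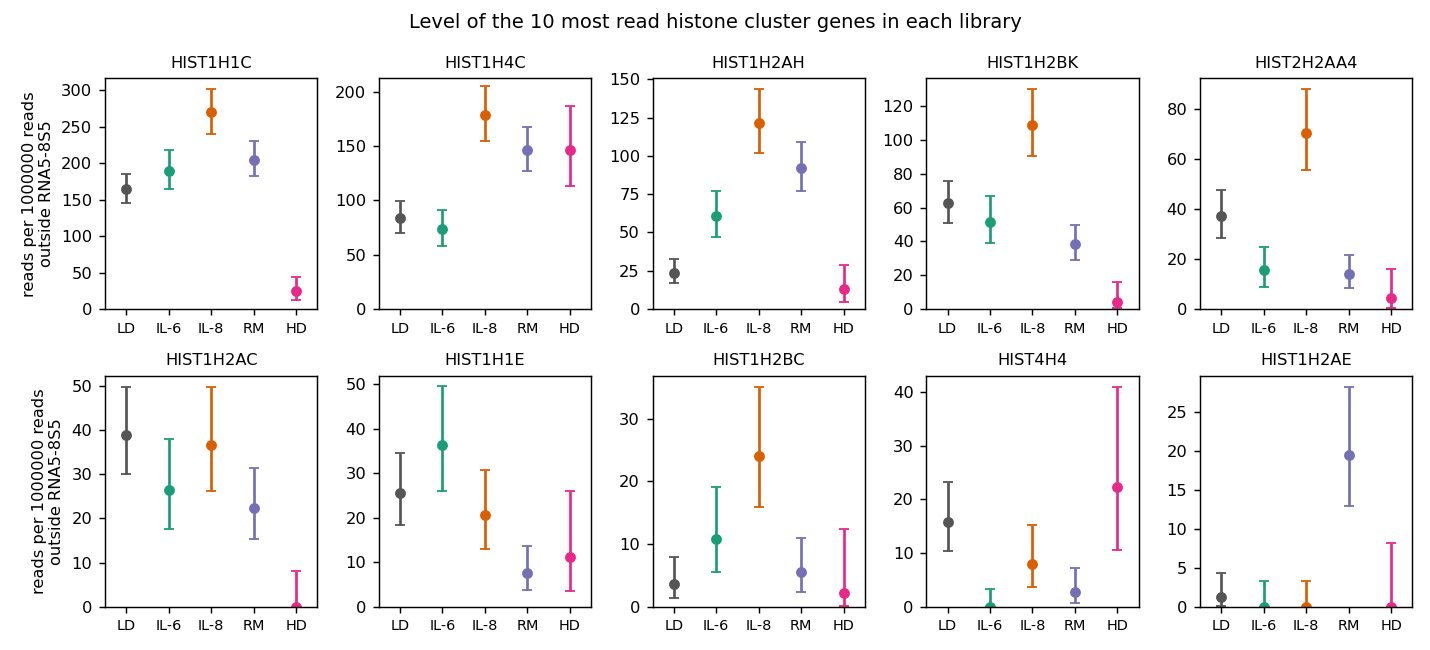
Reads per 1000000 reads outside RNA5-8S5 (vertical axis, own scale for each gene) for the 10 most read histone cluster genes in the 5 libraries; points are single libraries and bars exact 95% Poisson intervals. HIST1H1C lay between 164 and 270 at low density and at 24.5 in HD, while HIST1H4C was at 147 in HD, above its 83.9 in LD.

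The linker histones, which bind the DNA between nucleosomes, were represented by 2 genes. HIST1H1C had 270 reads in LD, 11 in HD, 294 in RM, 302 in IL-8 and 209 in IL-6. It was the most read gene of the family in each low-density library, with 30.7% to 36.9% of the family's reads, and was low in HD. Its level was 164 CPM in LD (145 to 185), 270 in IL-8 (240 to 302) and 24.5 in HD (12.2 to 43.8), so HD was at 0.149 times LD (0.0735 to 0.271). By log2(TPM + 1) HD lay 2.04 lower. HIST1H1E had 42 reads in LD, 5 in HD, 11 in RM, 23 in IL-8 and 40 in IL-6. Here RM was low, at 0.301 times LD (0.140 to 0.594), while HIST1H1C in RM was at 1.25 times LD (1.06 to 1.48). H1 made up 33.0% to 44.0% of the family's reads at low density and 9.36% in HD (95% Clopper-Pearson interval 5.44 to 14.8).

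Among the 16 genes for H2A, which pairs with H2B in the nucleosome, HIST1H2AH had the most reads. It had 39 reads in LD, 6 in HD, 132 in RM, 136 in IL-8 and 67 in IL-6. All 3 cytokine libraries were above LD: the ratio was 3.88 in RM (2.70 to 5.70), 5.12 in IL-8 (3.56 to 7.51) and 2.57 in IL-6 (1.71 to 3.91), and 0.563 in HD (0.195 to 1.34). RM was at 0.758 times IL-8 (0.592 to 0.971). HIST1H2AH was the only one of the first 10 genes whose interval lay above 1 in IL-6, IL-8 and RM alike.

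HIST2H2AA4 had 61 reads in LD, 2 in HD, 20 in RM, 79 in IL-8 and 17 in IL-6. It was high in LD and IL-8 and low in the others, at 0.120 times LD in HD (0.0142 to 0.452), 0.376 in RM (0.215 to 0.632), 1.90 in IL-8 (1.34 to 2.70) and 0.417 in IL-6 (0.228 to 0.723). Of the 50-base windows of its transcript 97.1% also occur in HIST2H2AA3, a copy not analysed here, so reads of this length cannot be assigned between these copies. HIST1H2AC had 64 reads in LD, 0 in HD, 32 in RM, 41 in IL-8 and 29 in IL-6. With HD set at its limit of 3 reads, HIST1H2AC was 5.83-fold lower there than in LD, before the counting error of the LD reads.

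HIST1H2AE was read almost in RM alone, with 28 reads against 2 in LD and 0 in IL-6, IL-8 and HD. RM was at 16.1 times LD (4.05 to 139). With IL-6 and IL-8 set at 3 reads, RM was 7.16-fold above IL-6 and 7.29-fold above IL-8, before the counting error of the RM reads. No 50-base window of its transcript occurs in another gene. HIST1H2AB had 4, 5, 9, 5 and 2 reads in LD, HD, RM, IL-8 and IL-6, and HIST2H2AC had 5, 3, 3, 9 and 5. HIST1H2AA was read in HD alone, with 6 reads.

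For H2B, HIST1H2BK led with 103 reads in LD, 2 in HD, 55 in RM, 122 in IL-8 and 57 in IL-6. It was high in IL-8, at 1.74 times LD (1.33 to 2.28), lower in RM, at 0.613 times (0.433 to 0.858), and lowest in HD, at 0.0711 times (0.00849 to 0.263). RM was at 0.352 times IL-8 (0.251 to 0.488), so HIST1H2BK and HIST1H2AH, both above LD in IL-8, stood on different sides of LD in RM. Of its windows 74.1% occur in other genes, most often H2BFS. HIST1H2BC had 6 reads in LD, 1 in HD, 8 in RM, 27 in IL-8 and 12 in IL-6, and IL-8 was at 6.61 times LD (2.67 to 19.6). HIST1H2BD had 11, 2, 1, 9 and 7 reads in LD, HD, RM, IL-8 and IL-6, and HIST1H2BL had 10, 1, 1, 1 and 0. HIST2H2BF was read mostly in HD, with 10 reads against 2 in IL-6 and 0 elsewhere. Of the windows of its transcript 59.5% also occur in other genes, so these reads may not all belong to it. With LD set at 3 reads, HD was 12.2-fold above it, and the exact lower limit of the ratio was 8.20. By log2(TPM + 1) the difference was 5.36, a value that depends on the 1 added.

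Genes for H2A and H2B often lie head to head with a promoter between them. In RefSeq 11 pairs of the listed genes have their starts on opposite strands within 1000 bases, 194 to 979 bases apart, and 9 of the pairs join H2A to H2B. HIST1H2AD and HIST1H3D have the same start there, so their pairs with HIST1H2BF are the same stretch, counted for each. Both genes were read in 7 pairs and 1 gene in 4. HIST1H2AC and HIST1H2BC start 246 bases apart, on the stretch printed above, and differed in their ratio of IL-8 to LD: 0.941 (0.620 to 1.41) for HIST1H2AC and 6.61 (2.67 to 19.6) for HIST1H2BC, intervals that do not overlap. HIST1H2AE, with 28 of its 30 reads in RM, has HIST1H2BG 233 bases away, which had 3 reads in LD, 1 in IL-6 and none in RM. HIST2H2BE and HIST2H2AC, 236 bases apart, had 20 and 25 reads.

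H3 was nearly absent from the libraries. Its 12 genes together had 7 reads in LD, 15 in HD, 5 in RM, 10 in IL-8 and 11 in IL-6, 1.41% of the reads of the family. The most read, HIST1H3C, had 5 reads in LD, 5 in HD, 0 in RM, 4 in IL-8 and 0 in IL-6. By level, H3 stood at 4.25 CPM in LD (1.71 to 8.77) and 33.4 CPM in HD (18.7 to 55.0). In contrast, H3F3B and H3F3A, which give the replication-independent H3.3 from polyadenylated mRNA, had 1024 and 591 reads in LD and 33 and 46 in HD.

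For H4, which pairs with H3, HIST1H4C took most of the reads, with 138 in LD, 66 in HD, 210 in RM, 200 in IL-8 and 81 in IL-6. It was the most abundant histone cluster gene per length, with a mean of 538 TPM over the libraries, against 295 for HIST1H1C, 178 for HIST1H2AH, 147 for HIST1H2BK and 70.5 for HIST2H2AA4. IL-8, RM and HD were above LD, at 2.13 (1.71 to 2.66), 1.75 (1.40 to 2.18) and 1.75 times (1.29 to 2.36), and IL-6 was at 0.877 times (0.658 to 1.16). HD did not differ from RM beyond counting error, at 1.00 times RM (0.748 to 1.33). HIST1H4C was thus the most read histone gene in HD, with 38.6% of the family's reads. By log2(TPM + 1) HD lay 1.49 above LD, by CPM 0.80, and by TPM with TMM scaling 0.22, so the size of this difference depended on the scaling and its direction did not.

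The lone gene of the HIST4 cluster, HIST4H4, had 26 reads in LD, 10 in HD, 4 in RM, 9 in IL-8 and 0 in IL-6. With IL-6 set at 3 reads, it was 5.80-fold lower than LD, before the counting error of the LD reads, and RM was at 0.177 times LD (0.0448 to 0.509). HIST1H4K had 9 reads in LD, 5 in RM and 0 elsewhere, and all of its 50-base windows occur in HIST1H4J, which had no read. H4 made up 15.5% to 27.1% of the family's reads at low density and 48.0% in HD (40.3 to 55.7).

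**Figure D3:**
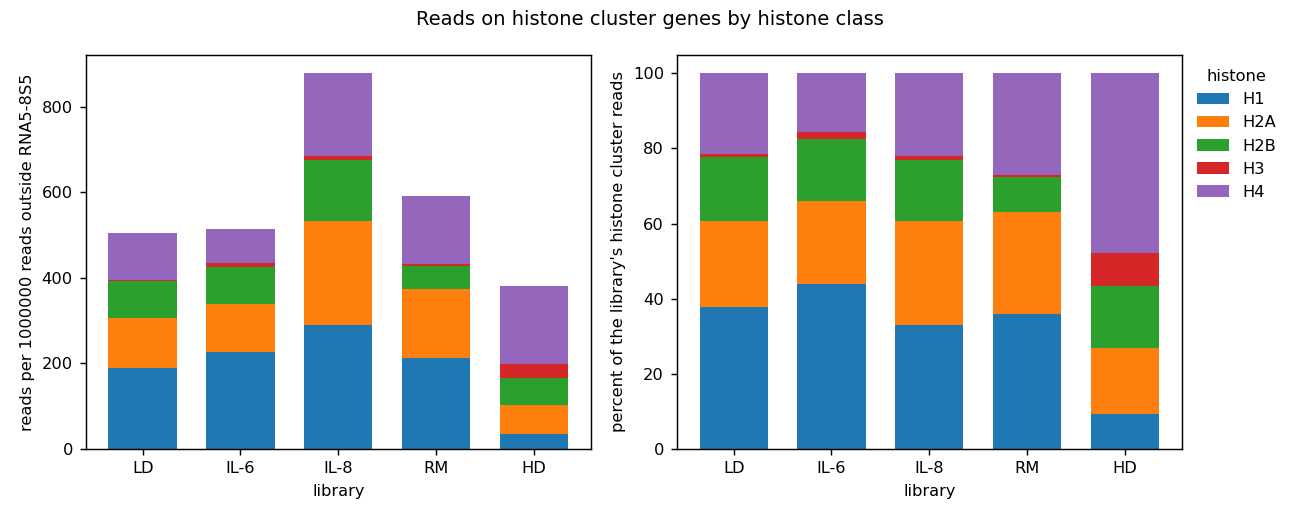
Reads on histone cluster genes by histone class in each library, as reads per 1000000 reads outside RNA5-8S5 (left) and as percent of the family's reads in that library (right). H1 held 33.0% to 44.0% of the family's reads at low density and 9.36% in HD, H4 held 15.5% to 27.1% and 48.0%, and H3 reached at most 8.77%, in HD.

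A nucleosome contains H2A, H2B, H3 and H4 in equal amounts, and the summed TPM of the clusters did not. In LD it was 265 for H2A, 216 for H2B, 13.0 for H3 and 416 for H4. The sum for H4 was 31.9 times that for H3 in LD, 9.09 in HD, 82.9 in RM, 42.1 in IL-8 and 12.5 in IL-6. H2A to H2B was nearer to balance, at 1.22 in LD, 1.61 in HD, 3.57 in RM, 1.51 in IL-8 and 1.30 in IL-6.

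The genes were then compared with LD on the log2(TPM + 1) scale, on which low genes move less than their ratio, and a difference of at least 1 was counted. In IL-6, 11 of the 67 genes were higher and 12 lower, where 9.84% and 7.47% of the 21163 genes with at least 1 TPM in a library were. Of the 11 higher, 9 had under 10 reads in both libraries, and likewise 9 of the 12 lower. In IL-8, 7 were higher and 9 lower (7.99% and 16.4% of all genes tested). In RM, 9 were higher and 9 lower (6.44% and 20.4%). In HD, 22 were higher and 10 lower (61.9% and 17.9%), and 20 of the 22 had under 10 reads in both libraries. The 22 genes are 32.8% of the 67 and 48.9% of the 45 that were ever read, both below the share over all genes tested. Of the same 45, 24.4% were higher and 26.7% lower in IL-6, and 15.6% and 20% in IL-8. In RM both shares were 20%, and in HD 22.2% were lower. Under 10 reads in both libraries were 4 of the 7 higher and 7 of the 9 lower in IL-8. In RM these were 7 of the 9 higher and 4 of the 9 lower. The median over all 67 genes was 0.00 in each comparison, with no read in either library on 24 genes for HD, 37 for RM, 38 for IL-8 and 31 for IL-6, and over all genes it was 0.00 in the cytokine comparisons and 0.77 in HD.

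With at least 10 reads in 1 of the libraries compared, 11 genes were left in each comparison. In IL-6, 2 were higher (HIST1H2BC by 1.35 and HIST1H2AH by 1.31) and 3 lower (HIST4H4, HIST1H2BL and HIST2H2AA4), beside 10.5% and 10.7% of all genes with that many reads. In IL-8, 3 were higher (HIST1H2BC by 2.28, HIST1H2AH by 2.21 and HIST1H2BK by 1.02) and 2 lower (HIST1H2BL and HIST4H4), beside 11.1% and 26.9%. In RM, 2 were higher (HIST1H2AE by 3.47 and HIST1H2AH by 1.79) and 5 lower, namely HIST1H2BL, HIST1H2BD, HIST4H4, HIST1H1E and HIST2H2AA4, beside 10.1% and 34.9%. In HD, 2 were higher (HIST2H2BF and HIST1H4C) and 5 lower, namely HIST1H2AC, HIST1H2BK, HIST2H2AA4, HIST1H1C and HIST4H4, beside 48.0% and 26.4%. The differences of HIST1H2BK in IL-8 and of HIST4H4 in IL-8 lay at the threshold, and by CPM they were 0.79 and -0.90.

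**Figure D4:**
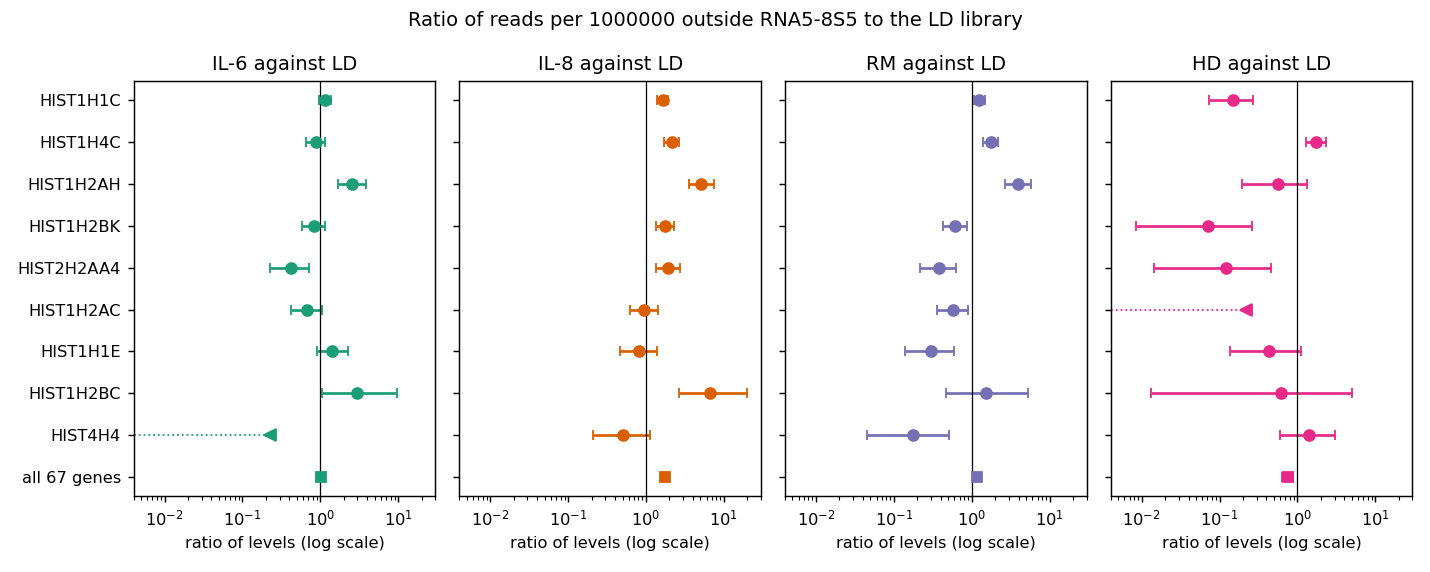
Ratio of CPM in each library to that in LD (horizontal axis, log scale) for 9 of the 10 most read genes, without HIST1H2AE, and for all 67 genes summed (squares); bars are exact 95% intervals on the counts, and a triangle with a dotted line marks the upper limit where the library had no read. HIST1H2AH lay above 1 in IL-6, IL-8 and RM, and in HD HIST1H4C lay above 1 and HIST1H1C, HIST1H2BK, HIST2H2AA4 and HIST1H2AC below it.

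Genes known to give polyadenylated transcripts as well were taken as a list, of which 10 were analysed: HIST1H1C, HIST1H2BK, HIST1H2AC, HIST1H2BC, HIST4H4, HIST1H2BD, HIST2H2BE, HIST1H4H, HIST3H2A and HIST2H4A. In LD all 10 were read and held 300 CPM of the family's 504. In HD 9 were read and held 68.9 CPM of 380. Their sum was 288 CPM in RM, 456 in IL-8 and 297 in IL-6. HIST1H4C and HIST1H2AH, the second and the third most read genes of the family, are not on this list. HIST2H2BE had 5, 2, 8, 0 and 5 reads in LD, HD, RM, IL-8 and IL-6, HIST1H4H 1, 1, 4, 1 and 7, HIST3H2A 4, 1, 3, 0 and 1, and HIST2H4A 3, 1, 4, 0 and 0.

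Reads and TPM side by side give the transcript length that was used for each gene, since TPM divides the reads by it. The scale was set on 202 to 256 genes per library with a single annotated transcript, whose quartiles of implied over annotated length were, in IL-8 for example, 0.820 and 1.03. Of the 45 genes with a read, 34 had an implied length under 800 bases in every library, and the median of the longest was 448 bases. HIST1H1C was at 678 to 699 bases, HIST1H4C at 340 to 347 and HIST1H2AH at 429 to 442, lengths near the coding sequence with short ends. HIST2H2BE was at 2210 to 2432 bases, on 2 to 8 reads. HIST1H3H was at 2355 to 3930 bases, on 1 to 4 reads, against 1237 in its single annotated transcript. Both were long in every library where they were read.

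For some genes the implied length differed between libraries, and the TPM moved with it. HIST1H2AC was at 995 bases in LD, 613 in RM, 557 in IL-8 and 712 in IL-6. Its level in IL-8 was 36.6 CPM against 38.9 in LD, while its TPM was 77.1 against 47.8. HIST4H4 was at 368 to 381 bases in LD, IL-8 and RM and at 1604 in HD. There its CPM was 22.2 against 15.8 in LD, and its TPM 26.2 against 55.4, so HD was above LD by reads and below it by TPM. Among the 11 genes with at least 10 reads, TPM and CPM gave opposite directions for 2 in HD (HIST4H4 and HIST1H2BD), 0 in RM, 1 in IL-8 (HIST1H2AC) and 1 in IL-6 (HIST1H2BD). HIST1H2BK ranged from 402 bases in IL-8 to 603 in HD, where it had 2 reads. HIST1H4H ranged from 329 in LD to 1011 in IL-8, each on 1 read. Whether the length used in a library reflects the molecules in it was not tested.

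**Figure D5:**
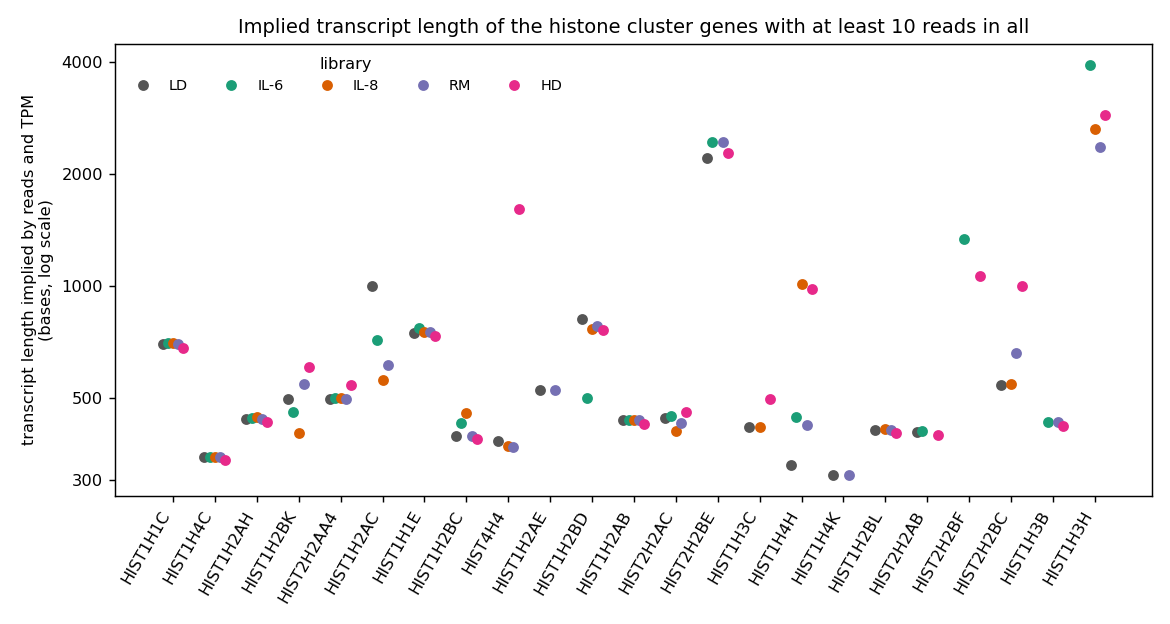
Transcript length implied by reads and TPM (vertical axis, bases, log scale) in each library (colours) for the histone cluster genes with at least 10 reads in all. HIST1H1C, HIST1H4C and HIST1H2AH kept nearly the same length in all 5 libraries, HIST1H2AC ran from 557 to 995 bases, and HIST4H4 was at 1604 bases in HD and 368 to 381 in the others where it was read.

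The replication-independent histone genes, whose mRNAs carry poly-A tails, form the closest comparison. The 18 listed had 2303 CPM in LD, 387 in HD, 2577 in RM, 2297 in IL-8 and 2100 in IL-6. Their level was thus close to that of LD in the cytokine libraries, in IL-8 too, where the cluster genes stood at 1.74 times LD, and in HD it lay below LD. On the log2(TPM + 1) scale 3 were higher and 7 lower in HD, 3 and 4 in RM, 0 and 3 in IL-8, and 1 and 1 in IL-6. H2AFZ, the variant H2A.Z, had 315, 1, 139, 182 and 155 reads in LD, HD, RM, IL-8 and IL-6. H1F0, the linker histone of resting cells, had 69, 6, 209, 47 and 25, with RM 1.60 above LD on that scale. CENPA, the H3 of centromeres, had 64, 3, 2, 71 and 46.

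RNAs that carry no poly-A tail at all were present in the same libraries. Of 379 small nuclear, nucleolar and related RNAs listed, 18 to 23 had a read in a library (4.75% to 6.07%), a smaller share than among the histone genes. Few of them held most reads: RMRP, the RNA of RNase MRP, had 421 reads in LD, 162 in HD, 616 in RM, 372 in IL-8 and 178 in IL-6. RPPH1, the RNA of RNase P, had 226 in LD, 229 in HD, 780 in RM, 270 in IL-8 and 159 in IL-6, and SCARNA2 had 336, 8, 560, 531 and 254. By CPM, RMRP was at 256 in LD and 360 in HD and RPPH1 at 137 and 509, while SCARNA2 was at 204 and 17.8. The 379 RNAs together had 667 CPM in LD, 1170 in HD, 1400 in RM, 1094 in IL-8 and 608 in IL-6. Like the histone cluster genes, they were higher in IL-8 than in LD, and in RM and HD they were higher still.

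The genes that act on the family had the following counts. Of 23 genes for the processing of histone mRNA, 4 were higher and 9 lower in HD, 1 and 9 in RM, 0 and 11 in IL-8, and 0 and 4 in IL-6. SLBP, which binds the stem-loop, had 15, 2, 3, 8 and 9 reads in LD, HD, RM, IL-8 and IL-6, and LSM10, a protein of the U7 particle, had 94, 0, 39, 17 and 45. The most read of the list were SNRPB, SYMPK and SRRT, with 1451, 1324 and 1001 reads in all. Of 19 genes for histone gene transcription, 9 were higher and 5 lower in HD, 0 and 5 in RM, 0 and 6 in IL-8, and 1 and 4 in IL-6. NPAT, the coactivator at histone clusters, had 20, 15, 14, 2 and 23 reads, and YY1 had 3616, 1474, 2406, 2371 and 1177. By CPM both were higher in HD than in LD, NPAT at 33.4 against 12.15 and YY1 at 3278 against 2197. Of 21 histone chaperones, 5 were higher and 11 lower in HD, 0 and 8 in RM, 1 and 8 in IL-8, and 1 and 1 in IL-6. SSRP1, a subunit of FACT, had 1697, 20, 1407, 1094 and 925 reads. Over all genes tested, 61.9% were higher and 17.9% lower in HD, 6.44% and 20.4% in RM, 7.99% and 16.4% in IL-8, and 9.84% and 7.47% in IL-6.

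Of 26 S-phase genes, 8 were higher and 9 lower in HD, 3 and 7 in RM, 5 and 3 in IL-8, and 4 and 3 in IL-6. Their summed level was 1805 CPM in LD, 712 in HD, 1875 in RM, 2036 in IL-8 and 1781 in IL-6. MCM5, a subunit of the replicative helicase, had 784, 4, 802, 350 and 377 reads in LD, HD, RM, IL-8 and IL-6, and PCNA, the sliding clamp, 50, 0, 41, 27 and 28. The S-phase sum in HD was below LD, while HIST1H4C in HD was above it.

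The median level, taken in each library apart, was higher in HD than in LD for the family and for all genes. The median of the differences gene by gene, HD against LD, was 0.00 for the family and 0.77 for all genes. The median TPM over all genes was 0.368 in LD and 6.59 in HD, against 0 and 5.57 for the family. On the log2(TPM + 1) scale the median over the 67 genes was 0.00 in LD, IL-6, IL-8 and RM and 2.72 in HD. Among 3594 other genes with at least 10 reads in every library, those most like this pattern over the 5 libraries were FAM66B, SLC37A2, KIAA1731, VHL and ZNF793, with Pearson's r from 0.9982 to 1.0000. With 4 equal values and 1 higher, this likeness says no more than that these genes were level at low density and higher in HD. FAM66B had 11 to 16 reads at low density and 210 in HD.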

How the data were processed

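RNA-seq of HT1080 cells in collagen was taken as deposited, 1 library per condition. A cell-free collagen control was not analysed here. The submitters' notes name CASAVA 1.4, Bowtie, Bowtie2 2.3.1, RSEM 1.2.25 and FastQC, and the builds GRCh37 and hg19, for single-end reads of 50 bp. The authors deposited a whole-number read count for each gene, without normalization. The authors also deposited TPM values, which summed to between 934821 and 978521 in a library and were rescaled here to 1000000.

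The 67 genes were selected by symbol. The members and the gene lists were chosen with earlier results of these data known. Differences are of log2(TPM + 1), counted at 1 log2 unit or more, with 21163 genes reaching 1 TPM somewhere. CPM uses the reads outside RNA5-8S5. Intervals are exact (Poisson, Clopper-Pearson, and conditional binomial for ratios) at 95%, and a count of 0 allows 3 reads. Fold values that set a count of 0 at 3 reads leave out the counting error of the other count. Named with values are the 10 genes with the most reads, the 5 with the highest mean TPM, the polyadenylated list, the 3 largest increases and decreases per comparison with at least 10 reads, near-identical copies, and the most read genes of each list; other genes of 10 or fewer reads or of the lists were named after their values were seen. Lists covered replication-independent histones, histone mRNA processing, transcription and chaperones, S-phase genes, RNAs without poly-A tails, olfactory receptors and cell type markers. Sequences come from GENCODE 29 and RefSeq (GRCh38.p14), matched by symbol, since the files give no positions. Alternatives were other pseudocounts, CPM, TMM and median-ratio scaling, other filters, a larger threshold and equal depth. The calculation was tested on simulated counts. The tools were edgeR 4.0.16 in R 4.3.3 (TMM factors from the counts, no test), and matplotlib 3.10.9, scipy 1.17.1 and pandas 2.3.3 in Python 3.11.15.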

Additional observations from a re-analysis of the deposited data

How the results depend on the processing

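No paired analysis was possible because each condition is 1 library and no result comes from a test. With 1 library per condition no spread between replicates exists, and the counts of genes rest in large part on genes with under 10 reads. The median over the 67 genes, 0.00 in each comparison, stayed within its interval under all 32 alternatives tried for it, which says little about stability. In IL-8 and RM 38 and 37 genes had no read in either library, so no alternative could move it from 0.00. In IL-6 and HD 31 and 24 genes had none, which also held it near 0.00. For the counts of higher and lower genes, 51 of the 80 alternatives stayed within 1.5 times of the reported count.

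The remaining counts moved as follows. For IL-6 against LD, 11 genes higher became 6 with a pseudocount of 5, 4 by CPM of all reads, 2 with at least 10 reads, 5 at 2 log2 units and 7 at equal depth, and 12 lower became 6, 4, 3 and 6 under the first 4 of these. For IL-8, 7 higher became 2 by CPM of all reads, 12 with median-ratio scaling, 3 with at least 10 reads and 4 at 2 log2 units, and 9 lower became 5 with a pseudocount of 5, 3 by CPM of all reads, 2 with at least 10 reads and 5 at 2 log2 units. For RM, 9 higher became 2 with a pseudocount of 5, by CPM of all reads, with at least 10 reads and at 2 log2 units, and 5 by CPM without RNA5-8S5 and at equal depth, and 9 lower became 5 with at least 10 reads and 14 at equal depth. For HD, 22 higher became 2 with at least 10 reads, and 10 lower became 6 with a pseudocount of 5 and 5 both by CPM of all reads and with at least 10 reads. The cause of these moves was not tested, except that the filter at 10 reads and the threshold at 2 log2 units leave fewer genes by construction.

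Genes with a read fell from 27 to 15 in IL-6 and from 37 to 14 in HD when 3 reads were required, and from 26 to 16 in RM at equal depth. The share of reads on the family, 0.0504% in LD, 0.0380% in HD, 0.0592% in RM, 0.0878% in IL-8 and 0.0514% in IL-6, became, in the same order, 0.0117%, 0.0185%, 0.0124%, 0.0179% and 0.0111% of all reads, so that HD, lowest outside RNA5-8S5, was highest. Without each library's most read gene it was, in that order, 0.0340%, 0.0234%, 0.0387%, 0.0609% and 0.0324%. Between genes with at least 10 reads in both libraries, the median of all genes in HD against LD was 0.83 by TPM, 0.21 by CPM, -0.35 with TMM scaling and 0.42 with median-ratio scaling, and in RM -0.42, -0.33, 0.10 and 0.25.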
